A study of Mus musculus with 8 samples.

Results

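The genes of the ligand-gated ion channels for glutamate, GABA, glycine and acetylcholine were followed in embryonic mouse dorsal root ganglia and spinal cord with and without the transcription factor Prdm12. They were chosen by gene symbol alone, taking every protein-coding gene of the AMPA, kainate, NMDA and delta glutamate receptors, the GABA-A receptors, the glycine receptors and the nicotinic acetylcholine receptors. All 58 such genes were found among the 38355 genes counted, and 45 of the 58 were read often enough to enter the test among 16068 genes. The other 13 stayed at or under 0.282 CPM (counts scaled to library size) in every library.

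RNA was sequenced from thoracic dorsal root ganglia, the sensory ganglia beside the cord, together with the associated spinal cord of C57Bl6 embryos at stage E11.5. The WT group held 4 libraries of wild-type embryos and the KO group 4 libraries of Prdm12 knockout embryos. Prdm12 encodes a zinc-finger protein of the PRDM family that is known for its part in the development of pain-sensing neurons. The series text speaks of triplicates, and all 8 libraries listed were used. The labels state neither which part of Prdm12 was deleted nor whether a library came from 1 embryo or a pool. Xist, read in female cells, was at 724 CPM or above in WT replicates 1 and 4 and KO replicates 3 and 4. It was at 1.53 CPM or below in the other libraries, where Ddx3y of the Y chromosome was at 59.4 CPM or above. Each group thus held libraries of both sexes, and so of different embryos. The p-values measure the spread between these libraries, part of which may be technical.

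These receptors are channels built from several subunits around a central pore, and the transmitter opens the pore. Glutamate receptors are tetramers that carry fast excitation in the mature nervous system. GABA-A, glycine and nicotinic acetylcholine receptors are pentamers of the Cys-loop family, in which the first pair pass chloride and the last passes cations. Many of the subunits appear before synapses do, and the composition of a receptor changes with age, as in muscle, where a gamma subunit is replaced by epsilon.

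Library totals were between 23088908 and 28500792 counts in 7 libraries and 67782435 in WT replicate 1. Prdm12 checked the labels, with 22.2 to 39.6 CPM in the WT libraries and 0.962 to 1.55 CPM in the KO libraries (log2 fold change −4.70, SE 0.24, adjusted p = 0.000124, edgeR quasi-likelihood test). Of 11 sensory neuron marker genes 10 were lower in KO and 4 passed the test, among them Pou4f1, Tlx2 and Eya2. WT replicate 1 stood apart from the other WT libraries. Its sensory marker sum of 476.7 CPM lay within the KO range of 441.4 to 501.6, while the other WT libraries lay between 603.7 and 637.7. It held the lowest WT value in 33 of the 45 tested subunit genes, or 73.3%, against 34.1% of all tested genes. Where leaving it out turned the sign of a printed log2 fold change of a subunit gene, or moved it by over 1.5 times, the value without it is given too. Where the groups of a gene overlap through 1 library only, the share of all tested genes with that pattern was not counted. A score of muscle and mesenchyme genes, none of them subunit genes, lay between 6.338 and 6.457 in the WT libraries and between 6.465 and 6.793 in the KO libraries. Since the groups did not overlap in it, a fit with the score as a covariate cannot be told apart from one that removes part of the genotype difference.

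No receptor subunit gene passed the test in KO against WT. With edgeR and Benjamini-Hochberg adjustment over all 16068 genes at 0.05, 48 genes passed, which is 0.299% of those tested, and 0 of the 45 subunit genes were among them. Their adjusted p lay between 0.337 and 0.999. At an unadjusted p under 0.05 there were 7 subunit genes of 45, or 15.6%, against 6.35% of all genes tested. That count was 3 without WT replicate 4, KO replicate 3 or KO replicate 4 (6.67%, against 5.26 to 5.58% of all genes), 10 without WT replicate 1 and 11 with the replicate number as a block. With the covariate above it was 1. DESeq2 called 0 of 57 subunit genes after adjustment, against 0.389% of all genes it tested, and had 7 of 57 at an unadjusted p under 0.05, against 3.67%. For limma-voom these were 0 of 45 against 0.716%, and 8 of 45 against 9.02%. The KO values were higher for 27 subunit genes and lower for 18, with a median log2 fold change of 0.07 against −0.003 over all tested genes. This balance was 25 higher and 20 lower without WT replicate 1 (median 0.02), 22 and 23 without KO replicate 2 (median −0.01), and 21 and 24 with the covariate. The 95% interval of the fold change lay inside 1.5-fold in either direction for 25 of the 45 genes and inside 2-fold for 40, so larger changes fell outside the intervals of those genes. In bulk tissue such as this, fewer cells of a type and less RNA per cell cannot be told apart.

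**Figure D1:**
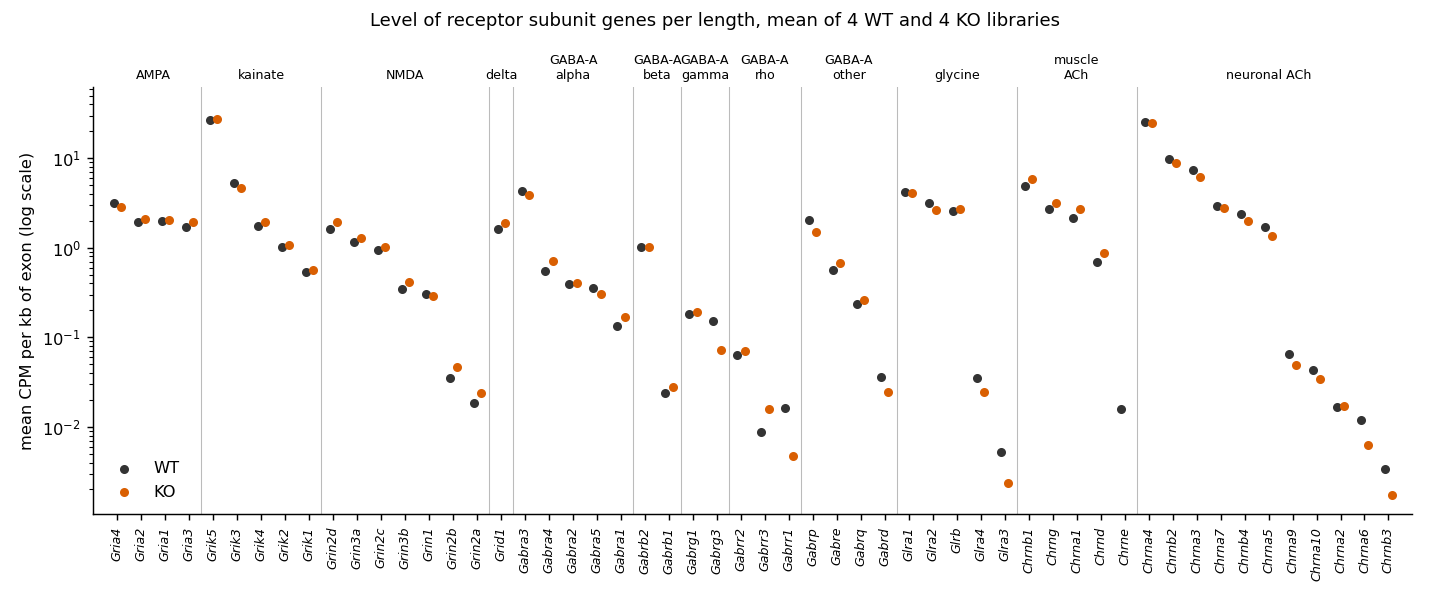
Mean level of 55 subunit genes in the 4 WT and 4 KO libraries, in CPM per kilobase of exon on a log axis, grouped by receptor class; ACh stands for acetylcholine. Means of 0 are not drawn, which leaves out Gabra6 and the KO value of Chrne. Grik5 and Chrna4 stand highest, and among genes above 0.1 in WT the widest gap between the WT and KO points is that of Gabrg3, at 0.152 and 0.0719.

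Within each class, levels per length showed which subunits the tissue expressed. They are given as CPM per kilobase of annotated exon, the only scale here on which genes are compared with each other. The highest were Grik5 at 26.4 ± 2.38 in WT and Chrna4 at 25.3 ± 2.34 (SD, n = 4 each), whose order does not hold up against the spread. Chrnb2 at 9.88 ± 0.777 and Chrna3 at 7.36 ± 0.65 followed. By the mean of all 8 libraries, each class kept its leading subunit when the longest principal transcript replaced the exon union as length. This choice was made after the data were seen. Several lower places changed, among them those of the AMPA subunits after Gria4. Some leads became narrow on that length, with Gria4 at 3.51 and Gria3 at 3.45 CPM per kilobase. Grin2d and Grin3a were at 2.16 and 2.02, and Glra1 and Glrb at 4.18 and 4.03. Whether these leads hold within each group was not tested.

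AMPA receptors, which carry most fast excitation in the mature brain, had 4 genes, all tested. Gria4 held 35.9 ± 2.07% of the summed AMPA level per length in WT (SD, n = 4), ahead of Gria1, Gria2 and Gria3 at 22.7 ± 1.56%, 21.9 ± 1.92% and 19.5 ± 1.91%, which did not differ from one to the next beyond their spread. Summed AMPA expression was 61.9, 83.1, 85.4 and 83.3 CPM in WT replicates 1 to 4 and 78.4, 103.0, 80.2 and 67.2 CPM in KO replicates 1 to 4. The groups overlapped, and the extremes were WT replicate 1 and KO replicate 2. Gria2, whose edited subunit limits calcium entry, had 22, 29.5, 34.8 and 33.2 CPM across WT and 31.9, 44.8, 31.9 and 23.4 CPM across KO. Its log2 fold change was 0.15 with a 95% interval from −0.32 to 0.63. Of the other subunits, Gria3 was at 0.19, Gria1 at 0.04 and Gria4 at −0.14 on the same scale, and without WT replicate 1 Gria2 was at 0.03 and Gria4 at −0.21. The sign for Gria1 and Gria2 depended on single libraries, as it was negative for both without KO replicate 2, at −0.08 and −0.03, and for Gria1 also without WT replicate 1, at −0.09.

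Kainate receptors, which act on both sides of synapses, had 5 genes, all tested. Grik5, which encodes a high-affinity subunit that forms no channel of its own, held 75.3 ± 0.582% of the kainate level per length in WT and 76.9 ± 1.28% in KO (SD, n = 4). Its values were 118, 142, 140 and 145 CPM across WT and 142, 149, 129 and 149 CPM across KO, so the groups overlapped. The 95% interval of its log2 fold change was −0.09 to 0.22, among the narrowest of the family. Grik3, the next in level, had 40.7, 52.9, 49.5 and 48.9 CPM across WT and 43.1, 47.3, 39.1 and 39.4 CPM across KO. WT replicate 1 lay among the KO values of Grik3, so the groups overlapped. On the log2 scale KO stood at −0.18 against WT (SE 0.09, adjusted p = 0.806). Grik4, the second high-affinity subunit, Grik2 and Grik1 were at 0.13, 0.09 and 0.05, and at 0.033, 0.003 and 0.016 without WT replicate 1.

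NMDA receptors need glycine or D-serine beside glutamate and are blocked by magnesium at rest. Their obligate subunit gene Grin1 was low at this age, at 0.303 ± 0.0873 CPM per kilobase in WT (SD, n = 4). Grin2d, a subunit known for expression in the embryonic brain stem and cord, led with 36.6 ± 1.57% of the class, followed by Grin3a with 26.4 ± 3.12% and Grin2c with 21 ± 1.99%. Grin2a and Grin2b held 0.421 ± 0.123% and 0.804 ± 0.381%. With the longest principal transcript as the length, Grin2d and Grin3a were close in WT, at 33.3% and 32.2% of the class. Counting did not state its use of strand, and the gene models of Grin2d and Grin3b overlap those of Kdelr1 and Tmem259 on the other strand, which had 124 and 140 CPM in WT, so part of their reads may belong to those genes.

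Grin2d had 7.47, 11.7, 12.1 and 11.7 CPM across WT and 12.4, 15.7, 11.4 and 11.6 CPM across KO. WT replicate 1 was low, KO replicate 2 was high and the other 6 libraries lay close together. Grin2c showed the same low WT library, with 2.76, 5.57, 5.41 and 5.21 CPM across WT and 4.73, 5.56, 4.95 and 5.42 CPM across KO. The log2 fold change of Grin2c was 0.15 with all libraries and −0.06 without WT replicate 1. In all, 6 of the 7 NMDA genes were higher in KO, with a median log2 fold change of 0.26 and intervals that all included 0. The count was 5 of 7 with a median of 0.12 without WT replicate 1, and 6 of 7 with a median of 0.11 without KO replicate 2. Grin2a rested on 6 to 15 counts per library and Grin2b on 13 to 52, and their intervals reached beyond a log2 fold change of 1.

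Grid1 encodes a subunit of the delta class, whose proteins bridge synapses by binding cerebellins rather than opening to glutamate. Grid1 had 8.45, 11.1, 8.94 and 10.1 CPM across WT and 11.4, 11.2, 11.1 and 11.1 CPM across KO. The KO libraries were nearly identical and matched the highest WT library. Grid1 had a log2 fold change of 0.22 (SE 0.09, 95% interval 0.02 to 0.42), and it did not pass after adjustment (adjusted p = 0.743).

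Over all 18 glutamate receptor genes, 15 were higher and 3 lower in KO, with a median log2 fold change of 0.14 and none passing the test. This balance moved with 2 libraries and with the method. It was 12 higher and 6 lower with a median of 0.02 without WT replicate 1, and 11 higher and 7 lower with a median of 0.04 without KO replicate 2. With all 8 libraries, limma-voom gave 11 higher and 7 lower with a median of 0.045. The muscle and mesenchyme covariate gave 10 higher and 8 lower with a median of 0.113.

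**Figure D2:**
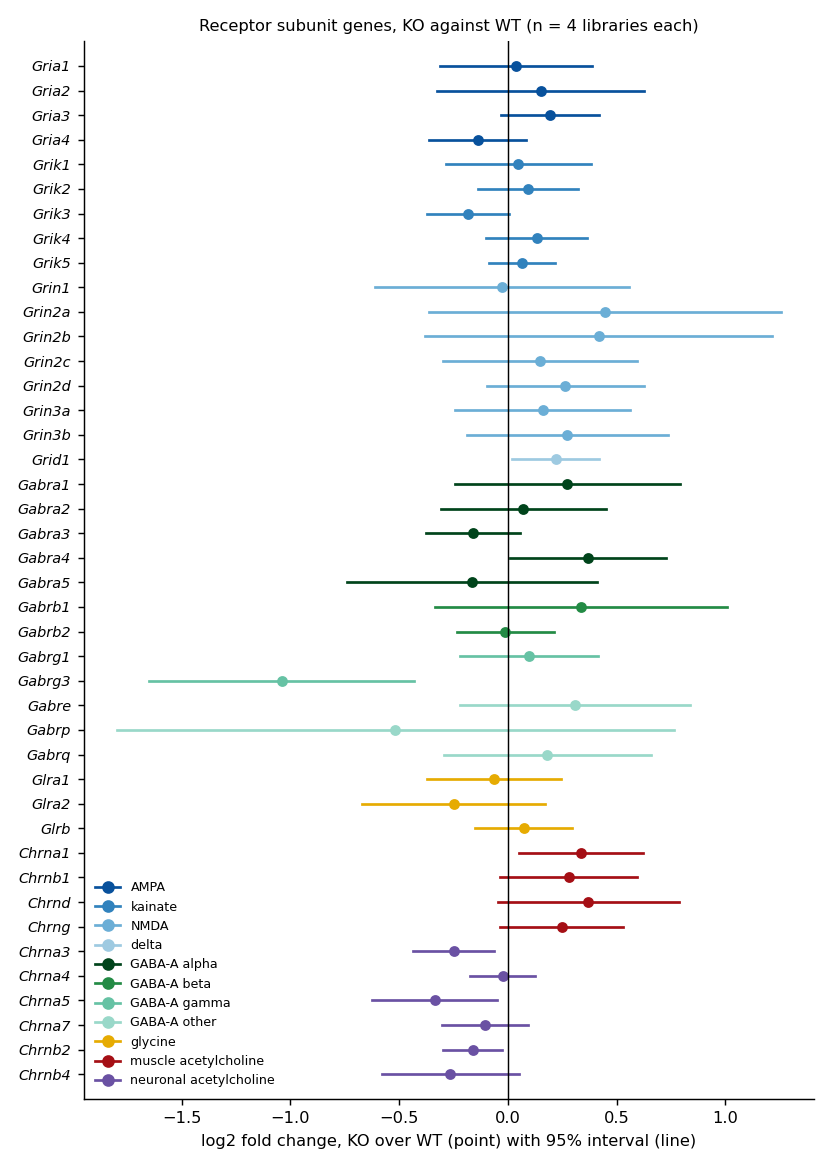
Log2 fold change, KO over WT, of 42 of the 45 tested subunit genes with 95% intervals from the edgeR fit, coloured by receptor class. Most intervals cross 0, the 4 muscle acetylcholine receptor genes lie right of 0, the 6 neuronal ones lie left of it, and Gabrg3 at −1.04 stands alone.

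GABA-A receptors, which are often depolarizing in embryonic neurons, usually combine alpha, beta and gamma subunits. Among the alpha subunits Gabra3 held 75.0 ± 0.953% of the level per length in WT and 70.6 ± 3.42% in KO (SD, n = 4 each). It had 14.0, 19.0, 18 and 16.9 CPM across WT and 15.6, 16.5, 14.7 and 13.6 CPM across KO. The groups overlapped, as WT replicate 1 lay among the KO values. KO over WT was −0.16 on the log2 scale (95% interval −0.38 to 0.06, adjusted p = 0.876), and −0.24 without that library.

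Gabrg3, which encodes a rarer gamma subunit, had the smallest p of the family. Its values were 1.05, 2.51, 2.04 and 1.66 CPM across WT and 0.65, 1.0, 0.862 and 0.918 CPM across KO. Every KO library lay below every WT library, though the gap between WT replicate 1 and KO replicate 2 was small. It was the only one of the 45 subunit genes with that separation, against 2.45% of all tested genes, and 0 subunit genes had every KO library above every WT library, against 1.69% of all tested genes. Gabrg3 had a log2 fold change of −1.04 (SE 0.28, 95% interval −1.65 to −0.43), and it did not pass after adjustment (adjusted p = 0.337). The gene rested on 47 to 71 counts per WT library and 18 to 25 per KO library.

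Without WT replicate 1 Gabrg3 passed the test, with a log2 fold change of −1.26 and an adjusted p of 0.0155. Without each of the other 7 libraries in turn it did not pass, with log2 fold changes between −1.12 and −0.84 and adjusted p between 0.493 and 0.67. In the fit without WT replicate 1, 133 of 16229 genes passed, or 0.82%, and Gabrg3 was the only subunit gene among them. In the other alternatives with all 8 libraries its adjusted p lay between 0.0518 with limma-voom and 0.923 with the muscle and mesenchyme covariate, and its log2 fold change between −1.63 and −1.03. Relative to 100 CPM of 8 summed pan-neuronal marker genes it stood at 0.0498 ± 0.0156 CPM across WT and 0.0262 ± 0.00469 CPM across KO (SD, n = 4), again without overlap.

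In mm10 Gabrg3 spans 56716465 to 57387188 of chromosome 7 on the minus strand. Its neighbour Gabra5, at 57407672 to 57510059 on the same strand, was at −0.17 on the log2 scale, KO over WT, without passing (adjusted p = 0.961). The difference between the neighbours was not tested. Gabra5 rested on 17 to 44 counts per library and was at −0.39 without WT replicate 1.

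Gabra4, an alpha subunit of extrasynaptic receptors, had 3.55, 3.21, 3.33 and 3.35 CPM across WT and 3.97, 3.2, 4.46 and 5.81 CPM across KO. KO replicates 1, 3 and 4 lay above all WT libraries and KO replicate 2 below them. KO over WT was 0.37 on the log2 scale (SE 0.16, adjusted p = 0.775). It was 0.21 without KO replicate 4 and 0.02 with the muscle and mesenchyme covariate. It lies on chromosome 5 beside Gabrb1, Gabra2 and Gabrg1, which were at 0.34, 0.07 and 0.10. Without WT replicate 1 Gabrb1 was at 0.08 and Gabra2 at −0.05. Gabrb1 rested on 8 to 14 counts per library. On chromosome 11, Gabrb2 had 6.49 ± 0.598 CPM across WT and 6.4 ± 0.461 CPM across KO (SD, n = 4), a log2 fold change of −0.01 with an interval from −0.23 to 0.21, and −0.065 without WT replicate 1.

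Of the rarer GABA-A subunits, Gabrp was set by 1 library. It had 15.4 CPM in WT replicate 1, where 1040 counts were read, whereas WT replicates 2 to 4 had 3.06 to 5.85 CPM and KO had 3.68 to 6.43 CPM. Its log2 fold change of −0.52 had an interval from −1.80 to 0.76 and became 0.30 without that library. Gabre and Gabrq, neighbours of Gabra3 on the X chromosome, were at 0.31 and 0.18 without passing, and at 0.14 and 0.06 without the same library. The rho genes Gabrr1, Gabrr2 and Gabrr3, known from the retina, and Gabrd, the delta subunit of tonic inhibition, did not reach the level needed for the test, and Gabra6, the cerebellar granule cell subunit, had 0 counts in all 8 libraries, where a count of 0 allows up to 0.0443 CPM in the deepest library and 0.13 CPM in the shallowest (3 counts, counting error only).

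Glycine receptors combine alpha subunits with the beta subunit that binds the anchor protein gephyrin. Glra1, Glra2 and Glrb shared the class, with 42.1 ± 8.29%, 31.8 ± 7.91% and 25.7 ± 3.67% of the level per length in WT (SD, n = 4), an order that is within the spread from one to the next. Glra2, the main alpha subunit of immature neurons, had 6.76, 9.37, 12 and 11.7 CPM across WT and 7.8, 10.6, 7.42 and 7.39 CPM across KO. The groups overlapped widely, and the log2 fold change was −0.25 with an interval from −0.67 to 0.17. It was −0.40 without WT replicate 1, −0.39 without KO replicate 2 and −0.15 without WT replicate 3. Glra1, the adult form, went the other way in WT replicate 1, which had 13.5 CPM, whereas WT replicates 2 to 4 had 8.82 to 9.4 CPM and KO had 8.93 to 10.9 CPM. Its log2 fold change was −0.06 with that library and 0.12 without it. Glrb was at 0.07. Glra3 and Glra4 were not tested.

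**Figure D3:**
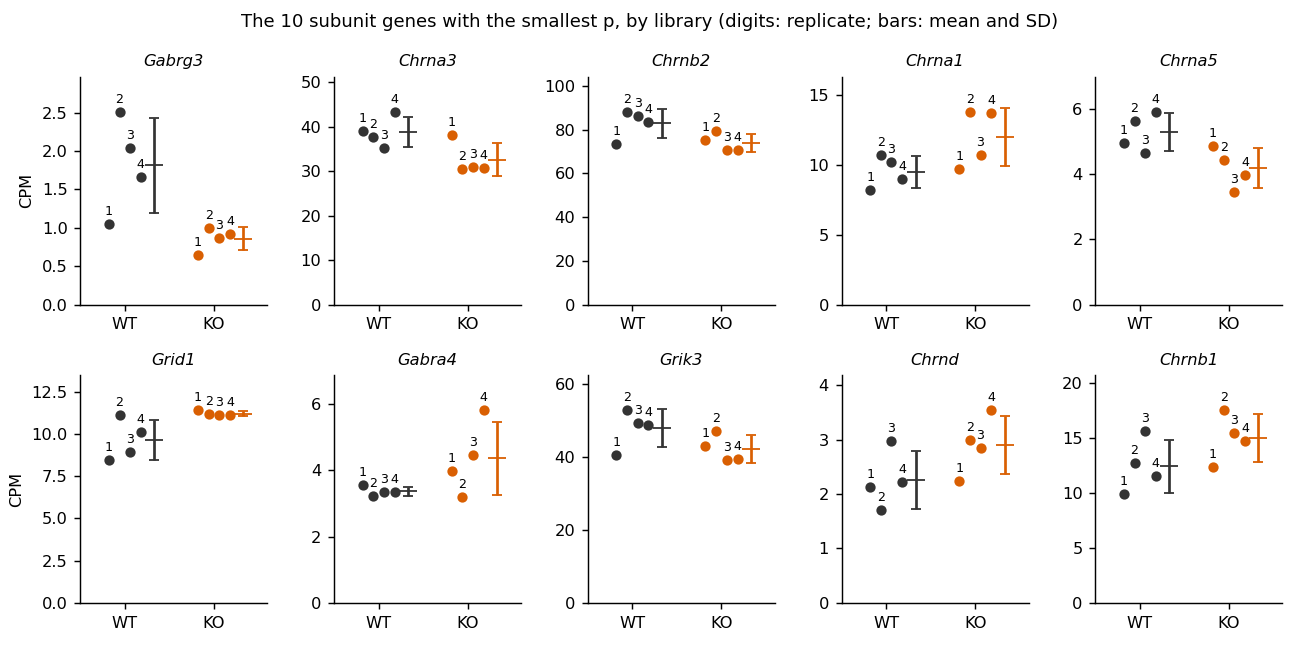
CPM in each library for the 10 subunit genes with the smallest p, from Gabrg3 to Chrnb1; each panel has its own axis from 0, points are libraries with their replicate number, and the bar is the mean with the SD of 4 libraries. The groups overlap in every panel other than Gabrg3, where the KO libraries lie between 0.65 and 1.0 and the WT libraries between 1.05 and 2.51.

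The acetylcholine receptor genes comprise those known from skeletal muscle and those known from neurons. The receptor of skeletal muscle joins alpha1, beta1 and delta subunits with gamma in the embryo and epsilon later. The embryonic form was seen here. Chrng, the gamma subunit gene, had 11.2 ± 2.11 CPM across WT and 13.2 ± 1.21 CPM across KO (SD, n = 4), whereas Chrne, the epsilon subunit gene, had 4 counts in all WT libraries together and 0 in KO. Chrnb1 led the class with 46.7 ± 1.28% of the level per length in WT, followed by Chrng and Chrna1 at 25.7 ± 1.17% and 20.9 ± 1.98%, and Chrnd at 6.58 ± 1.19%.

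The 4 tested muscle subunit genes were all higher in KO, with log2 fold changes between 0.25 and 0.37 and none passing the test. Chrna1, which binds acetylcholine, had 8.2, 10.7, 10.2 and 8.98 CPM across WT and 9.72, 13.8, 10.7 and 13.7 CPM across KO. KO replicates 2 and 4 lay above all WT libraries, KO replicate 3 equalled the highest and KO replicate 1 lay among them. This gave a log2 fold change of 0.34 (SE 0.13, adjusted p = 0.706). Chrnb1 was at 0.28 (adjusted p = 0.839), Chrnd at 0.37 (adjusted p = 0.833) and Chrng at 0.25 (adjusted p = 0.839). The log2 ratio of KO to WT means, 2 libraries each, was 0.171 in males and 0.507 in females for Chrna1. It was 0.074 and 0.494 for Chrnb1, and 0.165 and 0.557 for Chrnd. The female ratios include WT replicate 1, which stood apart, and KO replicate 4, whose muscle marker sum, given below, was the highest. Sex thus cannot be told apart from single libraries here. Other genes differed in this, with Gabrg3 at −1.462 in males and −0.606 in females. Chrnb2 was at −0.174 and −0.154, and Grik3 at −0.181 and −0.192. The difference between the sexes was not tested. Without WT replicate 1 Chrnb1 was at 0.18 and Chrng at 0.14, and the median of the 4 fell from 0.31 to 0.23. With limma-voom on all 8 libraries the 4 stayed higher in KO, with a median of 0.138. Chrnd and Chrng are neighbours on chromosome 1.

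The means of muscle markers lay on the same side. All 12 skeletal muscle marker genes, among them Myod1, Myog and Acta1, were higher in KO with a median log2 fold change of 0.31, the same as the 0.31 of the 4 subunit genes, and none passed. The marker sum ranged from 827.6 to 977 CPM across WT and from 920.5 to 1340 CPM across KO, and the subunit sum from 29.0 to 42.7 CPM across WT and from 35.9 to 47.9 CPM across KO. Per 100 CPM of muscle markers the subunits stood at 3.96 ± 0.40 CPM across WT and 3.93 ± 0.419 CPM across KO (SD, n = 4). With the muscle and mesenchyme covariate, whose score cannot be told apart from genotype here, the 4 were 2 higher and 2 lower with a median of 0.01. Of 12 sclerotome and mesenchyme marker genes 12 were higher in KO, with a median of 0.15, none passing and sums of 3056 to 4071 CPM across WT and 3786 to 4383 CPM across KO. Of 7 neural progenitor marker genes 7 were lower, with a median of −0.18, none passing and sums of 2882 to 3151 CPM across WT and 2706 to 2830 CPM across KO. Muscle was not part of the labelled tissue, and the part of these markers in the result was not tested.

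The sequences just upstream of the start of 3 of these genes are shown because E-boxes, the sites known to bind myogenic factors such as MyoD and myogenin, are a known feature of this receptor's promoters. They are 160 bases, 5′ to 3′ toward the start on the strand of the gene, from RefSeq (GRCm38.p6), which held a promoter entry for 41 of the 58 subunit genes. Capitals mark CAGCTG, which reads the same on both strands, and CAGGTG, searched on both strands. The regions are chr2:73580339-73580498 for Chrna1 on the minus strand, chr11:69795938-69796097 for Chrnb1 on the minus strand and chr1:87205651-87205810 for Chrng on the plus strand, the last within an intron of a longer Chrng transcript in GENCODE M21.
Chrna1: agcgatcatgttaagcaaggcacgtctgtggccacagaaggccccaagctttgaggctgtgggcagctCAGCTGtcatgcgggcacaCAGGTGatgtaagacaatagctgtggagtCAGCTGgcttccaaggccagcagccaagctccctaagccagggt
Chrnb1: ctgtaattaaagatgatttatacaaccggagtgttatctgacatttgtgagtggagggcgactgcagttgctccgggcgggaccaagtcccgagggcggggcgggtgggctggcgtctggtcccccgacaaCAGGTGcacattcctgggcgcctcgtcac
Chrng: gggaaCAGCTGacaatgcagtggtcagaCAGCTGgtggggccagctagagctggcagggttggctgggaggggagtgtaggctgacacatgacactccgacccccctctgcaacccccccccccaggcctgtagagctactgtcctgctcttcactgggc
Chrna1 held 2 copies of CAGCTG, beginning 92 and 44 bases before the start, and Chrng held 2, beginning 155 and 132 bases before it. Among 32851 RefSeq windows of the same length, 8.97% held CAGCTG and 0.63% held 2 or more. Chrnb1 held no CAGCTG in this window and 1 CAGGTG, which 11.2% of windows held on either strand. These matches describe letters in a window and show no binding.

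**Figure D4:**
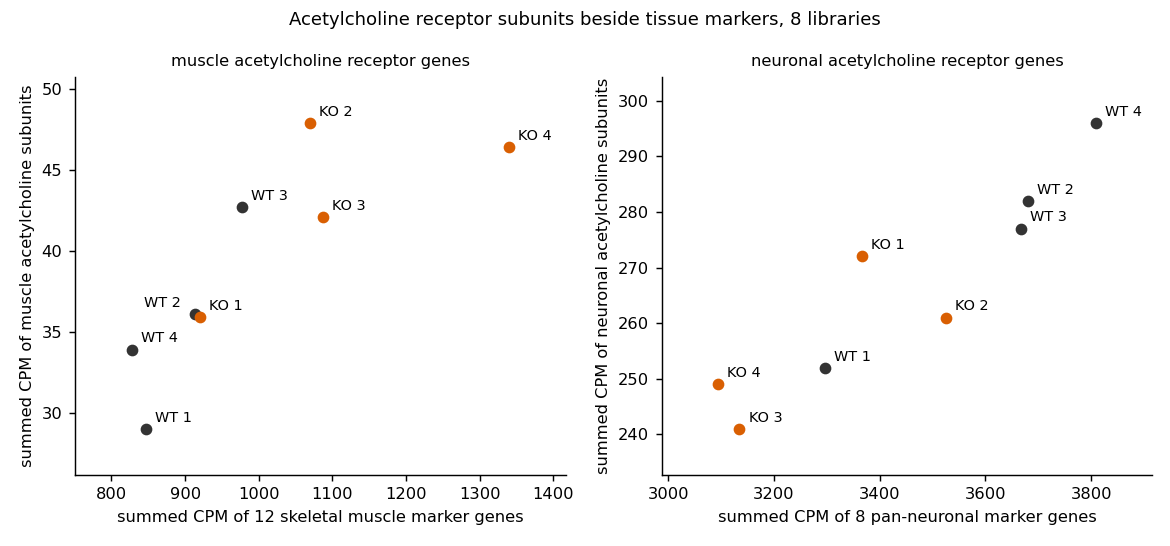
Left, summed CPM of the muscle acetylcholine receptor genes against the summed CPM of 12 skeletal muscle marker genes, and right, summed CPM of the neuronal acetylcholine receptor genes against 8 pan-neuronal marker genes; each point is 1 of 8 libraries, WT in grey and KO in orange, and axes do not start at 0. WT replicate 1 is lowest of the WT libraries for the pan-neuronal sum, at 3296 CPM.

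The neuronal acetylcholine receptor genes went the other way. All 6 tested genes had lower KO means, with log2 fold changes from −0.34 to −0.02, a median of −0.21 and none passing. The median was −0.08 with the muscle and mesenchyme covariate, where Chrna3 was at −0.055 and Chrna5 at −0.19. Chrna4 and Chrnb2, which together form the main high-affinity receptor of the brain, held most of the class, Chrna4 with 50.9 ± 1.81% of the level per length in WT and 54.0 ± 1.16% in KO (SD, n = 4). Chrna4 had 110, 131, 129 and 138 CPM across WT and 131, 130, 116 and 123 CPM across KO, with full overlap and a log2 fold change of −0.02 (95% interval −0.17 to 0.12), which became 0.02 without WT replicate 4 or without KO replicate 3 and −0.08 without WT replicate 1. Chrnb2 had 73.5, 88.1, 86.2 and 83.6 CPM across WT and 75.2, 79.2, 70.6 and 70.5 CPM across KO. The groups overlapped, as WT replicate 1 lay among the KO values. Chrnb2 had a log2 fold change of −0.16 (SE 0.06, adjusted p = 0.706). Its gene model overlaps that of Adar, at 100 CPM in WT, on the other strand.

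Chrna3, Chrna5 and Chrnb4 form a cluster on chromosome 9 and encode the ganglionic receptor of peripheral neurons. Chrna3 had 38.9, 37.7, 35.1 and 43.3 CPM across WT and 38.1, 30.5, 31.0 and 30.7 CPM across KO. KO replicate 1 lay among the WT libraries and the other KO libraries lay below all of them. KO over WT was −0.25 on the log2 scale (SE 0.09, 95% interval −0.44 to −0.06, adjusted p = 0.608). Chrna5 had 4.96, 5.64, 4.66 and 5.92 CPM across WT and 4.88, 4.44, 3.45 and 3.98 CPM across KO, a log2 fold change of −0.34 (SE 0.13, adjusted p = 0.708). Chrna5 in KO replicate 1 lay among the WT values and in the other KO libraries below them. The log2 ratio of KO to WT means, 2 libraries each, was −0.085 in males and −0.414 in females for Chrna3. For Chrna5 it was −0.145 and −0.551, and the difference between the sexes was not tested. The female ratios again include WT replicate 1 and KO replicate 4, and the male ones KO replicate 1. Chrnb4 was at −0.26 (adjusted p = 0.841) and at −0.17 without WT replicate 1, and Chrna7, which forms a receptor of a single subunit type and is not in the cluster, was at −0.10 (adjusted p = 0.927).

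Pan-neuronal marker genes had mostly lower KO means as well. Of 8 pan-neuronal marker genes 7 were lower in KO, with a median log2 fold change of −0.14 and none passing. Their sum was 3296 to 3809 CPM across WT and 3095 to 3526 CPM across KO. The summed neuronal acetylcholine receptor genes were at 252, 282, 277 and 296 CPM across WT and 272, 261, 241 and 249 CPM across KO. Per 100 CPM of the pan-neuronal sum they stood at 7.65 ± 0.088 CPM across WT and 7.80 ± 0.313 CPM across KO (SD, n = 4). On the same scale Chrna3 was at 1.07 ± 0.103 and 0.994 ± 0.11, and Chrnb2 at 2.29 ± 0.095 and 2.25 ± 0.0186. The kainate genes were at 5.51 to 6.07 CPM across WT and 6.28 to 7.0 CPM across KO per 100 CPM of these markers, without overlap. The delta genes did not overlap either, at 0.392 to 0.493 CPM across WT and 0.517 to 0.543 CPM across KO. The other receptor classes set against these markers overlapped. Without the markers, the kainate sum was 212 ± 20.4 CPM across WT and 214 ± 13.3 CPM across KO (SD, n = 4). These ratios carry no test. Chrna2, Chrna6, Chrna9, Chrna10 and Chrnb3 did not reach the level needed for the test.

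**Figure D5:**
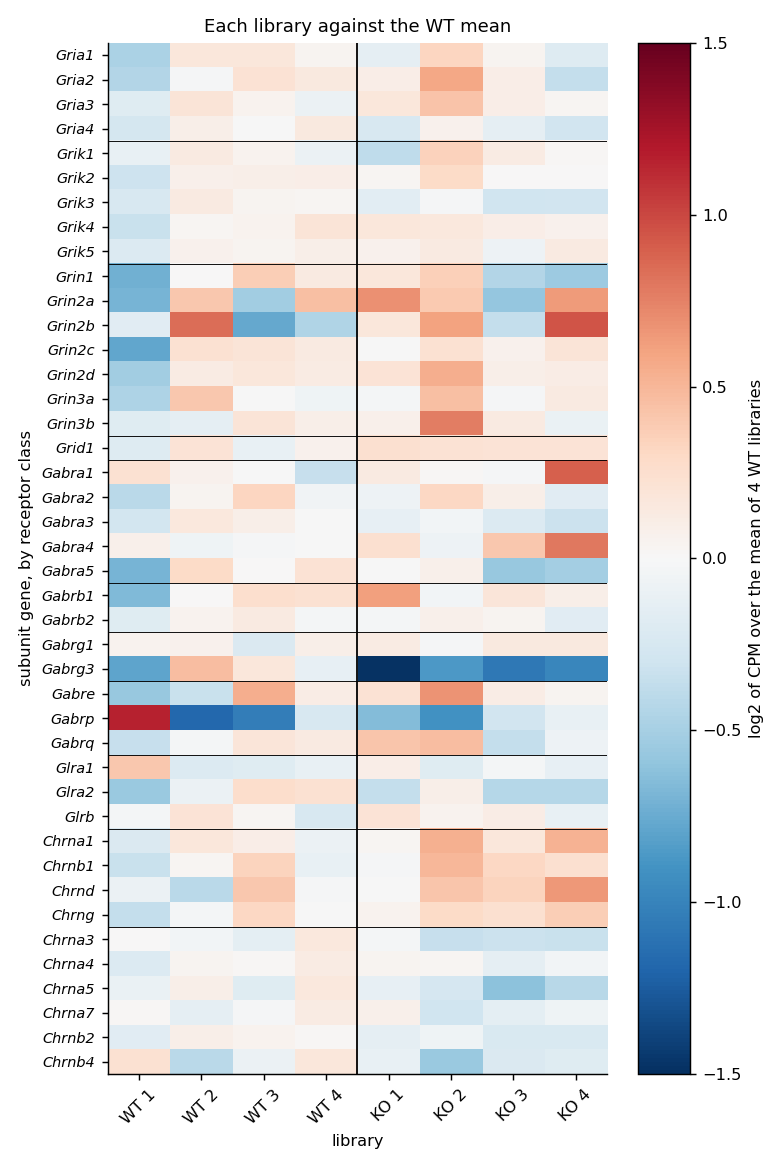
Log2 ratio of each library's CPM to the mean of the 4 WT libraries for 42 of the 45 tested subunit genes, grouped by receptor class (lines), with WT libraries left and KO libraries right of the black line. WT replicate 1 is blue, below the WT mean, in most rows, and Gabrg3 is blue in all 4 KO libraries.

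Genes that shape, carry or anchor these receptors were read from 3 lists of 56 genes in all, of which 28 were higher and 28 lower in KO, with a median log2 fold change of −0.002. All were tested and 0 passed with edgeR, DESeq2 or limma-voom. Gsg1l, an auxiliary subunit that slows AMPA receptor recovery, had 17.1, 26.9, 24.9 and 27.3 CPM across WT and 20.1, 18.2, 14.9 and 14.7 CPM across KO. The groups overlapped, as WT replicate 1 lay among the KO values. Its log2 fold change was −0.49 (SE 0.16, adjusted p = 0.578), and it passed without WT replicate 1, at −0.63 with an adjusted p of 0.0143. Shisa8, of a family of AMPA receptor binding proteins, had 0.639, 0.738, 0.627 and 0.669 CPM across WT and 0.397, 0.28, 0.525 and 0.393 CPM across KO, all below WT, with a log2 fold change of −0.73 (adjusted p = 0.542). Shisa8 rested on 139 counts over all 8 libraries. Of the other list genes, Ubqln1 also had every KO library below every WT library, and Dlg1 had every one above. Over all tested genes these shares were 2.45% and 1.69%. Cacng5, a transmembrane AMPA receptor regulatory protein gene, was at −0.38.

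On the inhibitory side, 10 of 15 anchoring and assembly genes were lower in KO and 5 higher. Gphn, which encodes gephyrin, was at −0.06 with an interval from −0.18 to 0.06. Lhfpl4, which links GABA-A receptors to neuroligin 2, was at −0.12 (adjusted p = 0.743), and the trafficking genes Plcl2 and Trak1 at −0.10 and −0.07. Among 16 genes for acetylcholine receptor chaperones, regulators and clustering, 10 were higher and 6 lower. Rapsn and Musk, which cluster the receptor under the motor nerve ending, were at 0.28 and 0.34 (adjusted p = 0.775 and 0.813). Lypd6, a regulator of the Ly6 family, was at 0.21, while Ric3, a chaperone of neuronal receptors, was at −0.13, neither passing.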

How the data were processed

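The authors deposited raw read counts for each gene and library, made from total RNA. The submitters' processing notes name build mm10 and the tools STAR 2.3.0e (an aligner), featureCounts 1.4.6-p1 (a read counter), FastQC 0.10.1, SAMtools 0.1.18 and DESeq2 1.8.2. Neither strand use nor the handling of shared reads is given in these sources. The 5 summary rows of each file were 0 and left out. Symbols and exon lengths came from GENCODE M21, which matched 36602 of 38355 identifiers. The 1753 unmatched held 0.263% of counts.

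The test was edgeR 4.0.16 under R 4.3.3 with KO against WT (filterByExpr, TMM, robust quasi-likelihood F test on group alone, Benjamini-Hochberg over 16068 genes, threshold 0.05), which was tested on simulated data. SE is the size of the log2 fold change over the square root of F. CPM used TMM-scaled totals. At the smallest total 1 CPM is 23.1 counts. Sums over classes carry no test. Members and lists were chosen with earlier results of these data known. The rule named Prdm12, the 10 tested members with the smallest p, the 3 highest per length in each class, and the 3 auxiliary genes with the smallest p in each list. Other genes were named after their values were seen. No protein sequence was used here. Alternatives were DESeq2 1.42.0, limma-voom (limma 3.58.1) with quality weights, further scalings and filters, a replicate block, covariates (a muscle and mesenchyme score, a sex score), and fits without each library. Some subunit genes count in the totals but are not reported here, and some list genes were not analysed here.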

Additional observations from a re-analysis of the deposited data

Results flagged for a closer look

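In 62 groups of 4 libraries, 7 values lay far from the rest of their group, with a gap to the nearest value, as a share of the whole range, above Dixon's 95% limit, which chance passes in about 1 of 20 groups. In WT replicate 1, Grin2c was at 2.76 CPM against 5.21 to 5.57 in the other WT libraries and Grin2d at 7.47 CPM against 11.7 to 12.1, while Glra1 was higher there, at 13.5 CPM against 8.82 to 9.4. In KO replicate 2, Glra2 was at 10.6 CPM against 7.39 to 7.8 in the other KO libraries, and Gabrg1 at 1.4 CPM against 1.55 to 1.57. Gabrg1 was also low in WT replicate 3, at 1.22 CPM against 1.47 to 1.51. It rested on 35 to 43 counts per KO library and on 31 in WT replicate 3. The limit takes no account of counting error, which at such counts cannot be told apart from these gaps. Chrna3 stood at 38.1 CPM in KO replicate 1 against 30.5 to 31.0 in the other KO libraries.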

How the results depend on the processing

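The count of genes passing was 48, and 101 with DESeq2, 115 with limma-voom, 1 with the muscle and mesenchyme covariate and 15 to 133 without each library in turn, the highest without WT replicate 1 and the lowest without KO replicate 3. The subunit count of 0 held in all other alternatives and was 0 to 1 without each library, as was the auxiliary count, with both calls (Gabrg3 and Gsg1l) made without WT replicate 1. The labels do not say whether replicate numbers pair the libraries. Same-numbered WT and KO libraries correlated at −0.108, 0.282, −0.187 and −0.007 in their deviations from the group means. Differently numbered ones correlated at −0.492 to 0.33. These values cannot settle the question, since a shared litter or batch need not give a positive correlation. With a replicate block 16 genes and 0 subunit genes passed.

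None of the following genes passed the test in any fit, and the cause of each turn of sign was not tested. The muscle and mesenchyme score did not overlap between the groups, so that its covariate and genotype cannot be told apart. With the muscle and mesenchyme covariate the log2 fold change became −0.009 for Chrna1, −0.006 for Chrng, 0.019 for Gabrb2, 0.181 for Glra1, −0.002 for Gria1, −0.015 for Grik5, −0.114 for Grin2c, −0.071 for Grin3a, −0.104 for Musk and −0.071 for Rapsn. With limma-voom it became −0.054 for Gabra2, 0.054 for Gabrp, 0.106 for Glra1, −0.082 for Gria1, −0.002 for Grik5 and −0.006 for Grin2c. Without each library in turn the log2 fold change ranged as follows. It was −0.081 to 0.017 for Chrna4, −0.054 to 0.195 for Gabra2, −0.065 to 0.036 for Gabrb2 and −0.754 to 0.3 for Gabrp. It was −0.127 to 0.124 for Glra1, −0.093 to 0.106 for Gria1, −0.031 to 0.286 for Gria2 and −0.057 to 0.241 for Grin2c. Genes near or below 1 CPM rest on few counts, which limits what could be detected for Gabrg3, Gabrb1, Grin2a, Grin2b and Shisa8.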
